A study of Mus musculus with 6 samples.

Results

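Accessible chromatin at the clustered protocadherin genes was examined in Beko, a line of mouse progenitor T (pre-T) cells. The members are all protein-coding genes of the GENCODE vM1 annotation whose symbol begins with Pcdha, Pcdhb or Pcdhg, 24 of 22380 coding genes. They occupy chr18:37089939-38001527 (mm9), a stretch of 912 kb on the plus strand. The annotation folds the Pcdha exons into 2 genes and the Pcdhg exons into 1, whereas 21 Pcdhb genes are listed singly. The starts were therefore also counted by variable exon, which gave 40 variable exons, 10 in Pcdha, 21 in Pcdhb and 9 in Pcdhg. RefSeq lists 36 Pcdha and Pcdhg genes and vM1 has a variable-exon start for 19 of them, so the starts of the others were not analysed here. The region, taken as the cluster and 200 kb to either side, held 25 of the 32527 accessible intervals (peaks).

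Beko cells, whose Notch signaling is constitutively active, were profiled by ATAC-Seq, in which a transposase cuts and tags open DNA. Of the 6 libraries, 3 were made after 24 h with DAPT, an inhibitor of γ-secretase (GSI), and 3 after 24 h with its solvent DMSO, all from this 1 line. The labels give DAPT at 10 mg/ml and the study's methods give the same figure in μg/ml. The authors merged the 6 libraries into 1 peak list with no value per library, so the values have no replicate error, and GSI was not compared with DMSO here.

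Clustered protocadherins are cell-surface adhesion proteins of the cadherin superfamily, known from neurons, where they serve in self-recognition of neurites and in synapse formation. In Pcdha and Pcdhg each large variable exon has its own promoter and is spliced to constant exons shared by the subfamily, whereas each Pcdhb gene is essentially 1 large exon. A neuron uses a small choice of the promoters, and CTCF and cohesin bring a chosen promoter together with distal enhancers by looping. The C-type exons at the 3′ ends of the Pcdha and Pcdhg arrays (Pcdhac1, Pcdhac2, Pcdhgc3, Pcdhgc4 and Pcdhgc5) are used more broadly among neurons than the alternate exons before them. Variable exons of the folded genes are named here after the RefSeq gene at the same distance from the start of Pcdhb1.

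Most markers of the labelled cell type were accessible. Of the pre-T markers, 15 of 17 had a peak within 1 kb of the start, including Cd3e and Cd3g (subunits of the T-cell receptor complex), Rag1 and Lck. Those without one were Cd3d (1.12 kb), another subunit of that complex, and Il2ra (5.13 kb). None of 8 B-cell markers and none of 8 myeloid markers had one (interval up to 32.4% for each). Over all coding genes 43.8% had one, 74.5% of those with a CpG-rich start and 19% of the others. In a list of 30 neuronal genes, 2 had a peak. They were Syp, which encodes a synaptic vesicle protein and whose start lay inside a peak, and Snap25, which encodes a component of the vesicle fusion machinery and lay 0.737 kb from a peak. None of the 13 neuronal genes with a CpG-rich start had a peak within 1 kb, among them Grin1 (a glutamate receptor subunit, nearest peak at 1.38 kb), Ina and Nefm.

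The clustered protocadherin promoters were almost devoid of accessible sites. By gene, a peak lay within 1 kb of the start in 1 of 24 members (4.17%, 95% Wilson interval 0.739 to 20.2%), whereas 43.8% of all coding genes did and 46% (227 of 493) of the other coding genes of the same chromosome did. By variable exon, 3 of 40 had a peak (7.5%, 2.58 to 19.9%), namely Pcdhb16, Pcdhgc3 and Pcdhgc4. The intervals cover counting error only, and neighbouring exons are not independent. The share was 0 of 10 in Pcdha (interval up to 27.8%), 1 of 21 in Pcdhb (0.846 to 22.7%) and 2 of 9 in Pcdhg (6.32 to 54.7%). The subfamily intervals overlapped. Among the C-type exons 2 of 5 had a peak (11.8 to 76.9%), and among the other variable exons 1 of 35 (2.86%, 0.506 to 14.5%). These intervals overlapped too, and the groups differed in composition, with 4 CpG-rich starts among the C-type exons and 0 among the others.

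**Figure D1:**
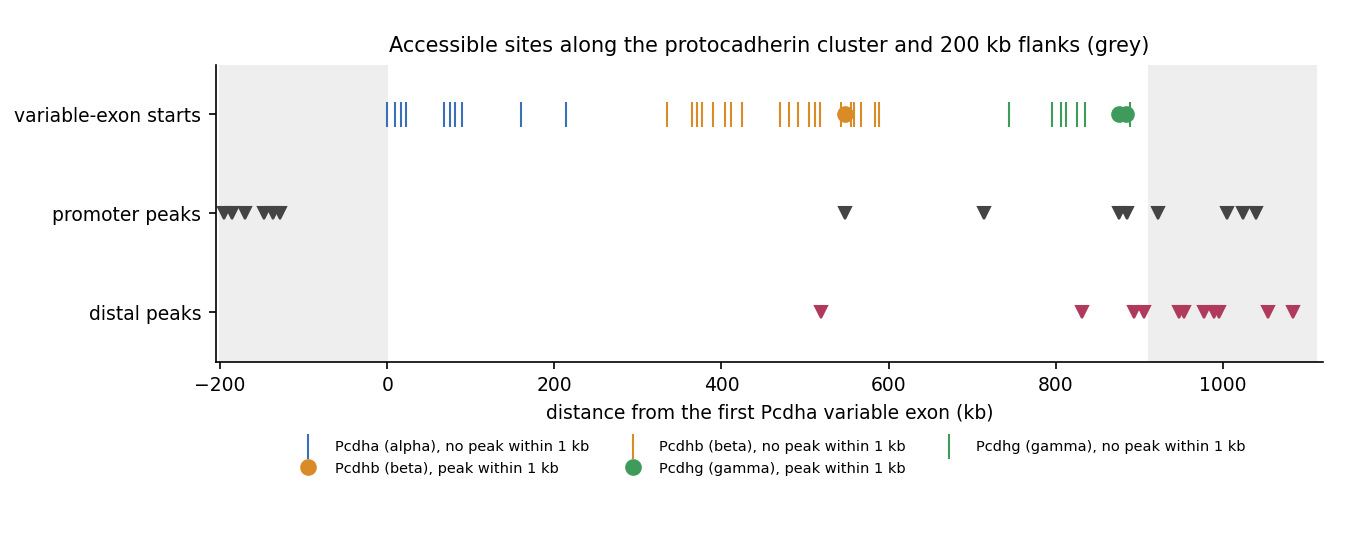
Positions of the variable-exon starts (vertical ticks, circles where a peak lay within 1 kb), of promoter peaks and of distal peaks, in kb from the first Pcdha variable exon, with the 200 kb flanks in grey. The 10 Pcdha exons and the first 14 Pcdhb exons lie in a stretch with no peak, and the distal peaks gather at the Pcdhg end and downstream of it.

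The 3 accessible variable-exon starts differed from each other. At Pcdhb16, a single-exon β gene, the peak chr18:37637361-37637668 covered the start, in the 5′ untranslated part of the exon. It was 308 bp wide, the narrowest of the 25 peaks of the region, and only 3.72% of all peaks of the list were narrower. At Pcdhgc3, the first C-type exon of the γ array, the peak chr18:37965667-37966454 was 788 bp wide and covered the start, and 71.5% of all peaks were narrower. At Pcdhgc4, the next C-type exon, the peak chr18:37974753-37975211 was 459 bp wide and lay 0.02 kb downstream of the start, in the 5′ untranslated part. Pcdhgc5, the last C-type exon, had its nearest peak at 3.99 kb. Pcdhac1 and Pcdhac2, the C-type exons of the α array, had theirs at 288 and 306 kb, so the 2 accessible C-type starts both belonged to the γ array.

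Beyond these 3, no variable-exon start came closer to a peak than Pcdhb14, at 1.94 kb. That peak, chr18:37609252-37609834, was 583 bp wide and lay inside the coding exon of Pcdhb14. Hence 4 of 40 variable exons were overlapped by a peak anywhere along the exon. The exons have a median length of 2693 bp. Next came Pcdhga12 at 3.67 kb, Pcdhgc5, and Pcdhb15 at 4.16 kb, an exon that lies between the Pcdhb14 and Pcdhb16 peaks. The nearest peak lay at a median of 199 kb from the Pcdha starts (128 to 306 kb), 37.9 kb from the Pcdhb starts (0 to 185 kb, highest at Pcdhb1) and 5.63 kb from the Pcdhg starts (0 to 35.7 kb, highest at Pcdhga8). All Pcdha distances exceeded all Pcdhg distances. In Pcdha the nearest was Pcdha1, the exon closest to the upstream flank, and the farthest Pcdhac2.

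**Figure D2:**
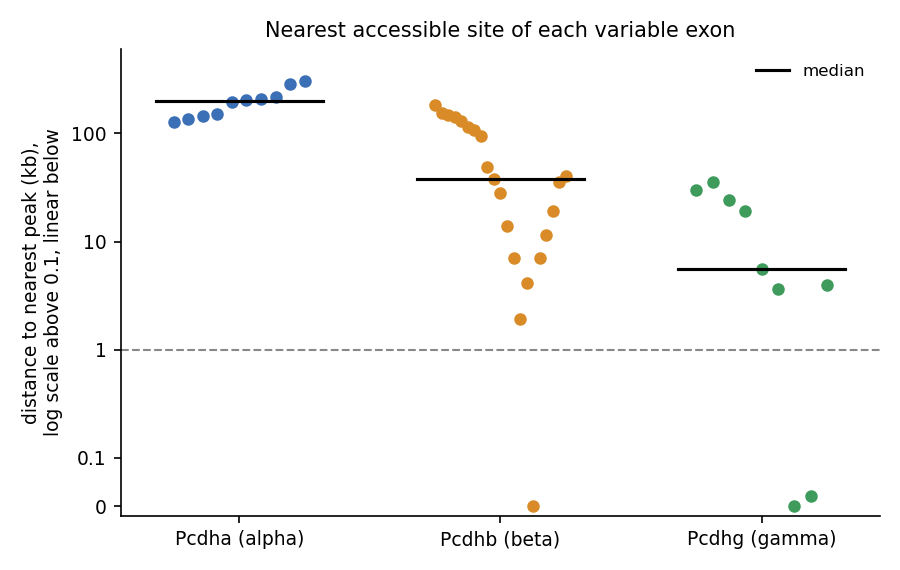
Distance from each variable-exon start to the nearest peak, in kb, on an axis that is logarithmic above 0.1 kb and linear below, with exons in chromosomal order within each subfamily, a bar at the median and a dashed line at 1 kb. The 10 Pcdha points lie between 128 and 306 kb, and 3 points, 1 in Pcdhb and 2 in Pcdhg, lie below the line.

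A stretch of 647 kb without a peak, chr18:36961801-37609251, contained 24 of the 40 variable exons, all 10 of Pcdha and Pcdhb1 to Pcdhb14, and so 16 of the 24 member genes. Because no peak lay anywhere in the 257 kb Pcdha array, the absence of peaks at α promoters holds for this array wherever its starts are placed. Enhancers of the α genes known from neurons lie among the α constant exons and just beyond them, and this sequence too held no peak. The stretch ranked 632 of 31860 peak-free stretches of the autosomes by length, so it was among the longer ones. It contained 18 coding starts, counted by gene with the folded Pcdha exons as 2 genes, and 47 other stretches contained more. The 2 coding starts in it that are no members belong to Gm6756 and Gm10545. Further stretches of at least 50 kb within the cluster ran for 166 kb over Pcdhb17 to Pcdhb22 and Slc25a2, a mitochondrial ornithine transporter gene, and for 117 kb over the γ exons from Pcdhga3 to Pcdhga11 and 3222401L13Rik.

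Peaks were sparser in the cluster than in the 200 kb flanks. The cluster held 8 peaks, 8.78 per Mb (95% Poisson interval 3.79 to 17.3), and the flanks 17, 42.5 per Mb (24.8 to 68.0), and these intervals did not overlap. With flanks of 100 kb, 7 peaks gave 35 per Mb (14.1 to 72.1), and for distal peaks alone the cluster had 4.39 per Mb (1.20 to 11.2) and the flanks 17.5 (7.04 to 36.1), and in both cases the intervals overlapped. The step did not fall at the borders, since the last upstream peak was centred 128 kb before the cluster and the peaks next to the downstream border 5.89 kb inside and 10.5 kb outside it. Chromosome 18 as a whole had 11.1 peaks per Mb and the autosomes 13.3, both inside the interval of the cluster. Along the cluster the density was 0 in the Pcdha array, 7.80 per Mb in the Pcdhb array (2 peaks) and 29.8 per Mb in the Pcdhg array (5 peaks). The remaining peak of the cluster lay at Taf7, which encodes a subunit of the general transcription factor TFIID and sits between the β and γ arrays.

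Genes that are no protocadherins kept accessible promoters next to the arrays. Of the 18 other coding genes that start in the region, 12 had a peak within 1 kb (66.7%, 43.7 to 83.7%). These were Tmco6, Ndufa2 (a subunit of respiratory complex I), Ik, Wdr55, Hars2 and Hars (histidyl-tRNA synthetases) and Zmat2 upstream, Taf7 inside the cluster, and Diap1 (an actin-nucleating formin), Hdac3 (a histone deacetylase), Rell2 and Fchsd1 downstream. In all 12 the start lay inside the peak. The 6 without one were Dnd1 (5.70 kb), Slc25a2 (5.06 kb), 3222401L13Rik (11.4 kb), Arap3 (12.9 kb), Gm6756 (118 kb) and Gm10545 (219 kb), and 4 of these lie in 1 of the peak-free stretches given above. One further promoter peak of the upstream flank lay at the start of a Vault RNA, at the upstream edge of that stretch. Of the 10 CpG-rich starts among these genes, 9 had a peak. Over all coding genes the share was 43.8%, and 74.5% for those with a CpG-rich start.

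The variable-exon promoters were compared with other promoters of like CpG content. A window of 500 bp to either side of the start was called CpG-rich at an observed to expected CpG ratio of 0.6 or more together with 50% GC or more. By this measure 44.7% of all coding genes, but only 4 of 40 variable exons, were CpG-rich. A further 12 variable exons reached the ratio but not the GC limit. The 4 CpG-rich exons were Pcdhac1 (ratio 0.607, GC 57.4%), Pcdhac2 (0.796, 67.3%), Pcdhgc3 (0.788, 58.4%) and Pcdhgc4 (0.672, 50.4%), all C-type exons. Peaks were present at the 2 γ exons of these 4 and at neither α exon, and Pcdhac2 exceeded both accessible exons in CpG ratio and in GC content. Over all coding genes 74.5% of CpG-rich starts and 19% of the others had a peak.

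The subfamilies differed in base composition. All 10 Pcdha windows reached a CpG ratio of 0.6, with a median of 0.707 (0.607 at Pcdhac1 to 0.796 at Pcdhac2), but the 8 alternate Pcdha exons had a GC content below 50%. The Pcdhb windows had a median ratio of 0.412, from 0.158 at Pcdhb9 to 0.556 at Pcdhb1, and none reached 0.6. Their median GC content was 41.6%. The Pcdhg windows spread most widely, from 0.247 at Pcdhgc5 to 0.896 at Pcdhga11, with a median of 0.657. The Pcdha and Pcdhb ranges of the ratio did not overlap, and the Pcdhg range overlapped both.

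**Figure D3:**
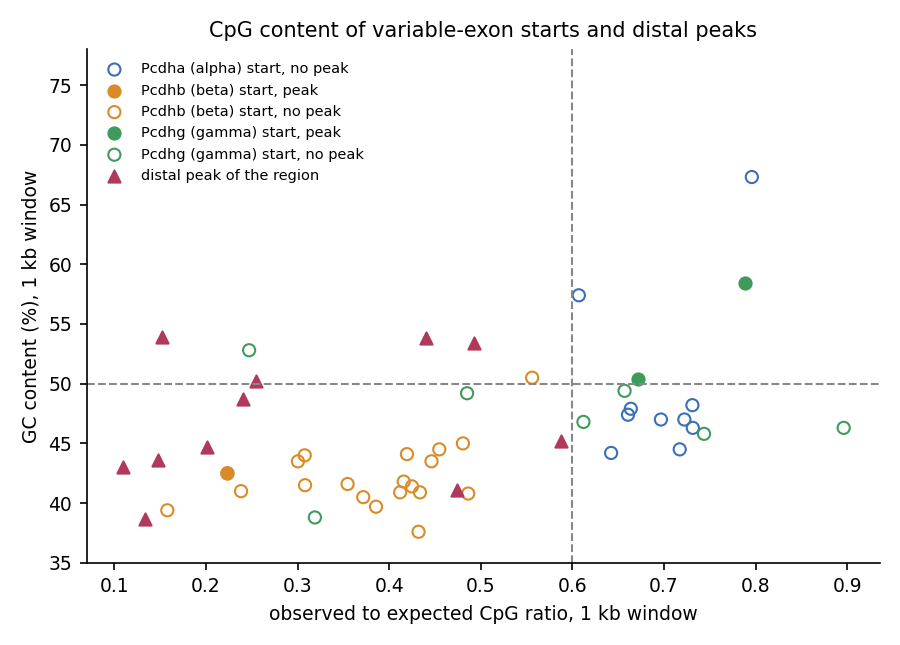
Observed to expected CpG ratio against GC content (%) in 1 kb windows centred on the variable-exon starts (circles, filled where a peak lay within 1 kb) and on the distal peaks of the region (triangles), with dashed lines at 0.6 and 50%. The 4 circles of the upper right field are C-type exons, the Pcdhb starts lie left of 0.6, and no distal peak reaches 0.6.

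The low share of accessible starts was seen at like CpG ratio. In the class from 0.6 to 0.8, 69.9% of 5609 other coding genes had a peak (68.7 to 71.1%) but 2 of 15 variable exons did. In the class from 0.4 to 0.6 the values were 41% of 3137 other coding genes (39.3 to 42.8%) and 0 of 12 variable exons. From 0.2 to 0.4, 14.9% of 4019 other genes and 1 of 11 variable exons had a peak, and in this class the counts cannot tell the shares apart. The classes hold starts of different GC content. With a ratio of 0.6 or more but under 50% GC, as at the alternate Pcdha exons, 65.1% of 321 other coding genes had a peak (59.7 to 70.1%) and 0 of 12 variable exons, 8 of them in Pcdha and 4 in Pcdhg. With a ratio under 0.6 and a GC content under 50%, as at most Pcdhb genes, 7.52% of 6875 other coding genes had a peak and 1 of 22 variable exons. The β starts thus had few peaks, as had other starts of like window composition. The α starts had none, where most starts of like window composition had one. The α starts of vM1 lie at the first coding base, so their windows may not be centred on the promoters. Whether this changes the comparison was not tested.

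**Figure D4:**
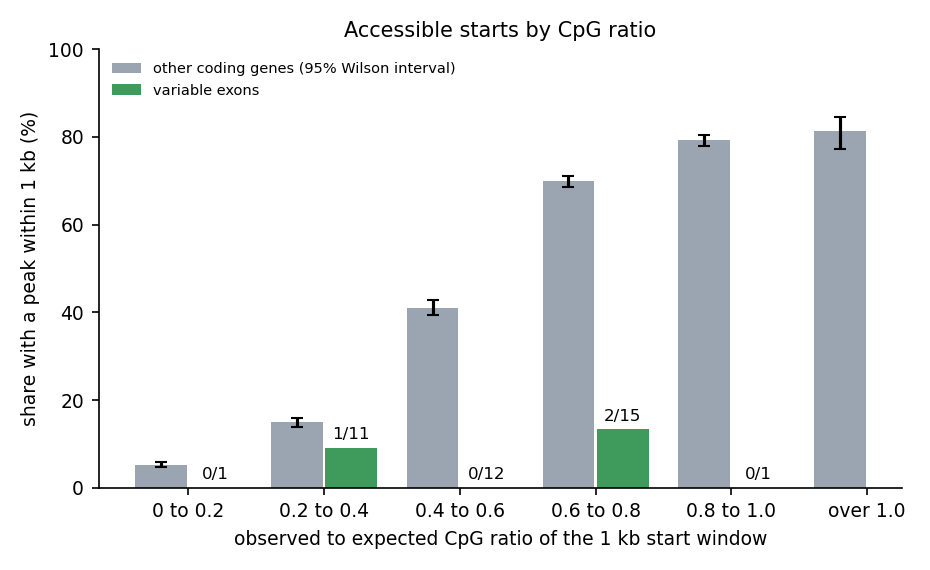
Share of starts with a peak within 1 kb (%), by class of observed to expected CpG ratio, for the other coding genes (grey bars with 95% Wilson intervals) and for the variable exons (green bars, with the count of exons with a peak over the count in the class). The grey bars climb from 5.23% to 81.3%, and the green bars stay below the grey bar in each class that holds variable exons.

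The annotated starts and the placing of reads were checked. All 10 Pcdha exons begin at the first coding base in vM1, with no 5′ untranslated part, whereas the Pcdhb exons have a median of 157 bp of it and the Pcdhg exons 168 bp. A peak at an α promoter would still fall within the 1 kb searched if the leader were of like length. The CpG and GC windows of the α exons would then shift by as much, and their values were not adjusted for this. The variable exons are paralogous, so that reads could be placed ambiguously. Simulated reads of 100 nt from the 2 kb around the starts were placed uniquely in a median of 100% of cases. The median was 96.9% in Pcdha and 100% in Pcdhb and in Pcdhg, with 88.5% at Pcdha10 as the lowest value. No start window had a near-identical copy elsewhere over at least 80% of its length. Copies of a shorter part would not be counted. All 25 peaks of the region gave uniquely placed reads throughout.

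Distal sites, defined as peaks more than 1 kb from every annotated transcript start, made up 11 of the 25 peaks of the region. Of these, 4 lay in the cluster, 7 in the downstream flank and 0 in the upstream flank. In the cluster the distal sites were the Pcdhb14 exon peak and 3 sites of the γ array. The peak chr18:37921054-37921562 (509 bp) lay between the starts of Pcdhga11 and Pcdhga12, in an intron of both the γ gene and the antisense gene Gm16882. It is distal by the vM1 starts, which lack part of the γ variable exons. Whether this peak lies at a start missing from vM1 was not tested. The peak chr18:37983355-37983739 (385 bp) lay downstream of the Pcdhgc5 variable exon, in sequence that 1 transcript model keeps as untranslated exon. The peak chr18:37995185-37996096 (912 bp) lay among the γ constant exons, in an intron, 5.89 kb inside the end of the cluster, and was the widest distal site of the region.

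Downstream, 5 distal peaks lay in introns of Diap1, which borders the γ array on the minus strand. Enhancers that act on the cluster in neurons are known from the sequence beyond the γ array. The Diap1 peaks were chr18:38036961-38037356, chr18:38043104-38043615, chr18:38067746-38068163, chr18:38079418-38079802 and chr18:38085414-38085941, with centres from 35.6 to 84.2 kb beyond the cluster. A sixth intronic Diap1 peak, chr18:38011781-38012225, centred 10.5 kb beyond the cluster, was counted as a promoter peak because a Diap1 transcript starts 836 bp away. The last 2 distal peaks were chr18:38143909-38144363 in an intron of Arap3 and chr18:38173507-38174243 between genes. Diap1 itself had an accessible promoter, so the list alone does not assign the intronic peaks to either gene.

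Promoters of the variable exons and distal sites differed in sequence. None of the 11 distal peaks was CpG-rich over its length (Wilson interval up to 25.9%), as against 2.94% of the 21005 distal peaks of the list. In a 1 kb window the distal peaks had a median CpG ratio of 0.240 (0.109 to 0.587), close to the 0.215 of all distal peaks, whereas the 40 start windows had 0.468 (0.158 to 0.896). The ranges overlapped, with 24 of the 40 starts inside the range of the distal sites, all 21 of Pcdhb and 3 of Pcdhg (Pcdhgc5, Pcdhga12 and Pcdhga9), and none of Pcdha. The distal site with the highest ratio, 0.587, was the one between Pcdhga11 and Pcdhga12, and the next was the Pcdhb14 exon peak at 0.493. The upper end of the range thus rests on a peak that may lie at a start missing from vM1, which was not tested. The median GC content was 45.2% at the distal peaks and 44.4% at the starts. The distal peaks were 385 to 912 bp wide, with a median of 509 bp, as against 465 bp for all distal peaks. The Pcdhb16 start, with a window ratio of 0.223, lay within the range of the distal sites, and the Pcdhgc3 and Pcdhgc4 starts lay above it. The 14 promoter peaks of the region, most of them at other genes, were CpG-rich in 11 cases (78.6%), against 68.3% of all promoter peaks.

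The core consensus of CTCF, the insulator protein that anchors loops in this cluster, was searched on both strands with at most 1 mismatch over 12 bases. It was present in 4 of the 11 distal peaks (36.4%, 15.2 to 64.6%), against 30.7% of all distal peaks, and the interval included that background. In promoter peaks the values were 2 of 14 in the region (14.3%) and 19.3% in the list. The 4 were the Pcdhb14 exon peak (minus strand), the peak among the γ constant exons (plus strand), the Diap1 intron peak chr18:38043104-38043615 (minus strand) and the Arap3 intron peak (plus strand), and 3 of them, all but the γ one, held it without a mismatch. The Diap1 peak at 10.5 kb beyond the cluster, counted as a promoter peak, held 2 matches, both on the minus strand. The 3 peaks at accessible variable-exon starts held none.

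In the 1 kb start windows the consensus was found at 5 of 40 variable exons (12.5%, 5.46 to 26.1%), against 11.9% of coding start windows. These were Pcdha1, Pcdha4, Pcdha10, Pcdha12 and Pcdhb8, and all 5 matches were on the plus strand, the strand on which the genes are transcribed. In Pcdha 4 of 10 windows held it (40%, 16.8 to 68.7%). A match is a run of letters and not a measured site, and none of these 5 windows held a peak.

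Other short motifs were at or below the background. TGGGAA, the core of the RBPJ motif, through which Notch acts, was found in 4 of 11 distal peaks (36.4%), against 39.2% of all distal peaks, and in 20 of 40 start windows (50%, 35.2 to 64.8%), against 59.2% of coding start windows. GGGCGG, the GC box bound by Sp factors, was in 14 of 40 start windows (35%, 22.1 to 50.5%), a share whose interval lay below the 60.3% of coding start windows. It was in the central 200 bp of 1 of 11 distal peaks, against 9.3%. CAGCTG, an E-box, was in the central 200 bp of 0 of 11 distal peaks (up to 25.9%), against 25.7%, and in 13 of 40 start windows (32.5%, 20.1 to 48.0%), against 41.8%. Both strands were searched. The start windows of the cluster are poorer in GC than most, with a median of 44.4% against 55% over coding genes, and the share of GC boxes was not adjusted for this.

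Other adhesion genes of the family were also without accessible promoters. None of 14 non-clustered protocadherins had a peak within 1 kb (up to 21.5%), although 5 had a CpG-rich start. Over all coding genes 43.8% had one, 74.5% of those with a CpG-rich start and 19% of the others. The highest CpG ratios among the 14 were 0.886 at Pcdh11x (nearest peak at 2738 kb), 0.785 at Pcdh7 (2324 kb), 0.713 at Pcdh17 (1690 kb) and 0.711 at Pcdh8 (110 kb). Pcdh11x, with a GC content of 35.6%, was not CpG-rich. The genes of this list nearest to a peak were Pcdh12 (1.61 kb), Pcdh19 (3.09 kb), Cdhr2 (6.66 kb) and Pcdh1 (13.8 kb). Of these, Pcdh12 and Pcdh1 lie on chromosome 18. The median distance was 766 kb, against 39.1 kb for the variable exons. The variable exons lie in 1 stretch and many share a nearest peak, so the medians are not like for like.

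Most listed genes whose products act on the cluster or on protocadherin proteins had accessible promoters. Of 26 regulators, 23 had a peak (88.5%, 71.0 to 96.0%), including all 19 with a CpG-rich start. Among them were Ctcf, Rad21 and Smc3 of the cohesin complex, Dnmt3b, a DNA methyltransferase, Smchd1, a chromatin silencing protein, and Setdb1, a histone methyltransferase, each with the start inside a peak. The 3 without a peak were Tet1 (20.9 kb) and Tet2 (74.9 kb), which encode enzymes that oxidise methylcytosine, and Lrif1 (36.5 kb). This holds for the start of the longest coding sequence, where the CpG ratio was 0.271 at Tet1 and 0.212 at Tet2. Other starts of these genes were not examined singly. Of 14 genes of intracellular partners and processing enzymes 12 had one, including Ptk2 and Ptk2b (kinases that bind protocadherin tails) and Adam10 (a protease that cleaves protocadherins). The 2 without were Cyfip1 and Ret. Most of these genes have CpG-rich starts, of which 74.5% had a peak over all coding genes. Among the 13 CpG-rich partner genes 11 had one (84.6%, 57.8 to 95.7%), an interval that includes this background. The interval of the 19 CpG-rich regulators, 83.2 to 100%, lay above 74.5%. Both lists were chosen with earlier results of these data known, so neither interval tests a difference from other genes.

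Among other tandem gene families, 2 of 40 Hox genes (5%, 1.38 to 16.5%) and 0 of 240 olfactory receptor genes of chromosome 7 (up to 1.58%) had a peak. Of the 22 Hox genes with a CpG-rich start 2 had one (9.09%, 2.53 to 27.8%). By gene, the interval of the clustered protocadherins, 0.739 to 20.2%, overlapped both. Over all coding genes 43.8% had a peak, and 74.5% of those with a CpG-rich start. The olfactory receptor genes had no CpG-rich start and a median CpG ratio of 0.140. In the class of ratios from 0 to 0.2, 5.23% of coding genes outside the cluster had a peak.

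**Figure D5:**
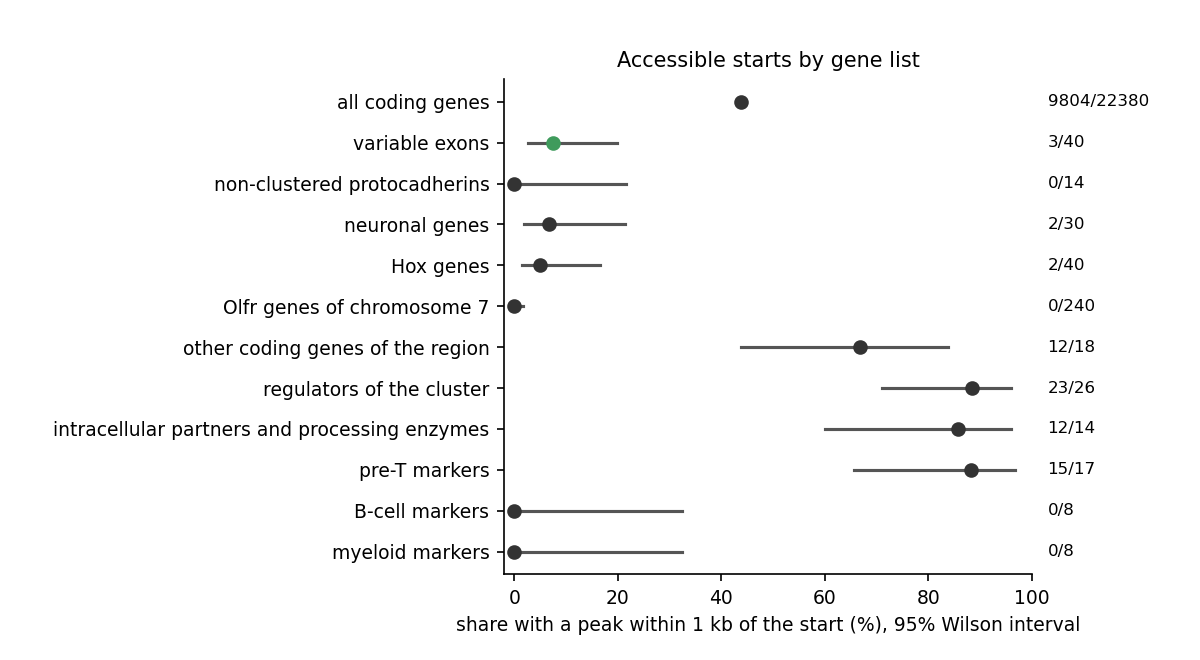
Share of starts with a peak within 1 kb (%), as points with 95% Wilson intervals, for all coding genes, the variable exons and the gene lists, with counts at the right. The variable exons sit with the non-clustered protocadherins, neuronal, Hox and olfactory receptor genes at the low end, and the regulators, partners and pre-T markers above 80%.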

How the data were processed

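Reads were trimmed by the authors, aligned to mm9 with HISAT2 (version 2.2.1 in the submitters' processing notes) and cleared of duplicates with Picard, and peaks were called with MACS2 without input. Peaks conserved in at least 3 libraries out of 6 and outside blacklisted regions form the list. The deposited columns used here are chromosome, start and end. The deposited score is 0 in every row and was not used. A peak found in 1 treatment can be in the list, and depth per library was not used, so a start without a peak is one without a call.

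Coordinates were converted to count from 1. Starts came from GENCODE vM1 on NCBIM37, the same build as mm9, by the coding transcript with the longest coding sequence. First exons of 1 gene within 500 bp were joined, and the 40 variable exons were named by their distance from Pcdhb1 in RefSeq (GRCm38.p6), within 300 bp, without using its coordinates. Shares have 95% Wilson intervals and densities Poisson intervals, for counting error only. No test was run, since the list has no replicates. Placement of simulated reads and copies (at least 80% of the length at 95% identity) used minimap2 2.31, with unique reads at a mapping quality of at least 10. Other work used Python 3.11.15 with numpy 2.4.6, scipy 1.17.1, pysam 0.24.0 and matplotlib 3.10.9. Distances, CpG ratios and motif searches were tested on simulated data. Ptcra, 1 pre-T marker, was not matched to a coding gene.

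The members and gene lists were chosen with earlier results of these data known. The rule for names took members with a peak, the members of each subfamily with extreme CpG ratio or distance, the other coding genes of the region, all distal peaks, and of each list up to 4 genes near a peak and up to 4 without one by CpG ratio. Other genes and exons were named after their values were seen. Alternatives varied the distance, transcript, peak width, CpG window and limits, flanks and motif. Counting every variable exon, and its own alternatives, were added after seeing the data.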

Additional observations from a re-analysis of the deposited data

How the results depend on the processing

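No paired analysis was possible because peaks were merged over the libraries, and no library could be left out. The count of 1 of 24 members became 2 within 2 kb or with any coding or any transcript, 4 within 5 kb and 0 with peaks of at least 500 bp. By variable exon, 3 became 7 within 5 kb and 1 with peaks of at least 500 bp, and the CpG-rich starts became 4 in place of 1 gene. These exon counts were chosen after seeing the data. Over coding genes the share of 43.8% became 42.6% within 500 bp, 45.8% within 2 kb, 50.7% within 5 kb, 40.3% with the start inside the peak, 46.1% with any coding transcript, 46.9% with any transcript and 41.1% with peaks of at least 500 bp. For CpG-rich genes 74.5% became 75.5% within 2 kb and with any coding transcript, 77.6% within 5 kb, 71.9% with the start inside the peak, 76.1% with any transcript, 72.5% with peaks of at least 500 bp, 73.4% with windows of 250 bp to either side and 77.9% with limits of 0.75 and 55%. Distal peaks alone gave 17.5 per Mb in the flanks. The other 32 values stayed within their intervals or within 1.5 times the count.

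Peaks of shallow libraries can be missed, and the list gives no height, so weak accessibility at a start cannot be told from none.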
